A study of Homo sapiens with 8 samples.

Results

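The 9 genes described here control clotting and clot removal at the vessel wall. They were taken by symbol (PLAU, PLAUR, PLAT, THBD, TFPI, TFPI2, F3, PROCR and VWF) from a table of 34415 genes, and all 9 were found. The cells were TeloHAEC, an endothelial line made from human aorta and immortalised with telomerase, with a wild-type genotype. There were 4 libraries of cells given estradiol (E2), the main estrogen, and 4 control libraries, and palmitic acid, a saturated fatty acid, was in the medium of both groups. The series asked what estradiol does in such cells in a setting meant to resemble atherosclerosis-prone vessels. The titles gave the groups: the treatment label of the estradiol libraries names only palmitic acid. The line is a single immortalised line, no dose or time is given in the sources used here, and whether replicates came from separate cultures is not stated. The p-values therefore rest on the variation among the 8 libraries, which could be technical.

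Endothelial cells hold clotting back and can also start it. Tissue factor (F3) on a cell surface binds factor VIIa and starts coagulation, and tissue factor pathway inhibitor (TFPI) blocks that complex together with factor Xa. Thrombomodulin (THBD) turns thrombin from a clotting enzyme into an activator of protein C, which the endothelial protein C receptor (PROCR) presents to it. Tissue-type and urokinase-type plasminogen activators (PLAT and PLAU) make plasmin, which dissolves fibrin, and von Willebrand factor (VWF) tethers platelets and carries factor VIII.

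Levels are in FPKM, fragments scaled to transcript length and to the library's total. Being per length, they can be set side by side between genes. They are not adjusted for base composition, and ratios between genes differed between libraries, as given below. The whole reads behind the values, recovered from their steps, came to 33421051 to 39899258 per library. All 10 endothelial markers examined were above 1 FPKM, with CDH5, the endothelial cadherin, at 100.4 to 142 FPKM. None of 8 macrophage, 6 fibroblast or 4 hepatocyte markers reached a mean of 1 FPKM. Of 6 platelet markers only ITGB3, an integrin subunit that endothelial cells also make, did, and PF4, PPBP, GP9 and GP1BA were each at 0 in at least 1 library. Of the epithelial markers KRT8, KRT18, KRT19 and CLDN7 were above 1 FPKM while EPCAM and CDH1 were at most 0.0163 FPKM, and of the smooth muscle markers ACTA2, SMTN and TAGLN were above it while MYH11 and CNN1 were at most 0.151 FPKM. The summed levels overlapped between the groups for each marker list: 83.5 to 113 FPKM in estradiol and 81.8 to 126 FPKM in control libraries for the epithelial list, and 24.0 to 35.6 and 24.1 to 36.5 FPKM, in the same order, for the smooth muscle list. Control replicate 3 and estradiol replicate 4 stood apart from the other 6 libraries on a first principal component that held 68.7% of the variance, and their part in each result is given below.

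None of the 9 genes differed between estradiol and control beyond the spread between libraries. In limma on log2(FPKM + 1), fitted to the 10720 genes with a mean of at least 1 FPKM, 0 of the 8 members tested were higher and 0 lower at a Benjamini-Hochberg adjusted p under 0.05 (adjusted p = 0.999989 for each). Over all genes 0 were called in either direction (0%). At an unadjusted p under 0.05 limma gave 26 genes (0.243%), none of them a member, and limma-voom on the recovered reads gave 22 and also called 0. That number depended on the libraries that stood apart: with a term for control replicate 3 and estradiol replicate 4 limma gave 351, and also called 0. The members' groups overlapped in 9 of 9, and over the genes tested the groups did not overlap in 0.532% (0.308% higher and 0.224% lower with estradiol). The log2 fold changes of the 8 members, 4 above 0 and 4 below, had a median of -0.0011, beside -0.00047 for all genes tested. Small changes were not detectable: the widest 95% interval, for TFPI, ran from 0.755 to 1.37-fold of FPKM + 1, and those of the other 7 members lay inside it. VWF lay under the filter and was tested by itself. In bulk RNA, fewer cells of a kind and less RNA per cell cannot be told apart.

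**Figure D1:**
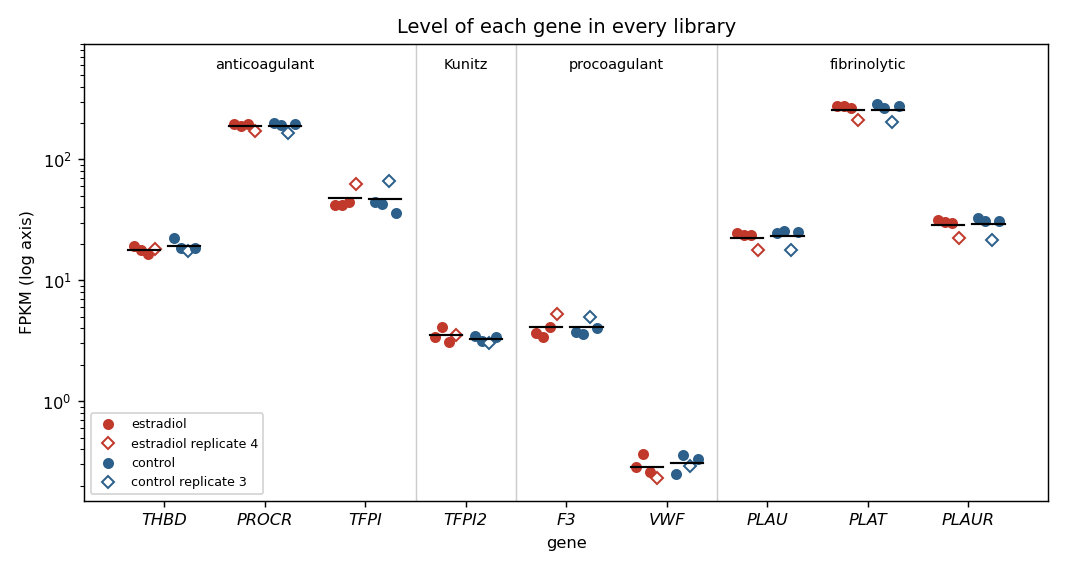
FPKM of the 9 genes on a log axis in 4 estradiol libraries (red, left of each pair) and 4 control libraries (blue, right). Each point is a library, black bars are group means, and open diamonds are estradiol replicate 4 and control replicate 3. The groups overlap for every gene, and the diamonds lie above the other points for TFPI and F3 and below them for PROCR, PLAU, PLAT and PLAUR.

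The members spanned a wide range of levels, with the mean of the most abundant, PLAT, 868 times that of VWF. The order by mean over all libraries was PLAT, PROCR, TFPI, PLAUR, PLAU, THBD, F3, TFPI2 and VWF. PLAT and PROCR were nearly adjoining, with 202.5 FPKM in the lowest library for PLAT and 201.7 in the highest for PROCR, but PLAT was above PROCR in 8 of 8 libraries. PLAUR and PLAU overlapped in range over the libraries, though PLAUR was above PLAU in 8 of 8. PLAU against THBD and F3 against TFPI2 also overlapped, each in the stated order in 7 of 8 libraries. The ranges of the other neighbours were separate.

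Of the anticoagulant genes, PROCR was the most abundant, higher than 97.6% of the genes tested. It measured 196, 189, 195 and 172 FPKM in estradiol replicates 1 to 4, against 202, 193, 165 and 196 FPKM in control replicates 1 to 4. The low values were estradiol replicate 4 and control replicate 3, and the rest lay between 189 and 202 FPKM. Its log2 fold change was -0.0049 ± 0.093 (SE). PROCR overlaps a transcript of the opposite strand, MMP24OS, in the reference annotation, which stood at 20.5 ± 3.05 FPKM in estradiol and 20.7 ± 3.17 FPKM in control libraries (SD, n = 4 each). Whether the counting used strand is not given in the sources used here, so how reads over both were counted is not known.

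THBD, thrombomodulin, measured 19.1, 17.7, 16.5 and 18.0 FPKM in estradiol replicates 1 to 4, against 22.4, 18.4, 17.4 and 18.6 FPKM in control replicates 1 to 4. Control replicate 1 was the highest, and the other 7 libraries lay between 16.5 and 19.1 FPKM. The means were 17.8 ± 1.099 FPKM in estradiol and 19.2 ± 2.18 FPKM in control libraries (SD, n = 4 each), a log2 fold change of -0.10 ± 0.098 (SE). This was the lowest fold change among the 8, and without control replicate 1 it was -0.025. PROCR transcripts were 10.6 ± 0.956 times as abundant as THBD transcripts in estradiol libraries and 9.89 ± 0.761 times in control libraries (SD, n = 4 each). The ratio overlapped between the groups and was highest in estradiol replicate 3, at 11.9.

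TFPI measured 41.5, 41.9, 44.1 and 62.5 FPKM in estradiol replicates 1 to 4, against 44.2, 43.0, 65.7 and 36.1 FPKM in control replicates 1 to 4. Its values separated estradiol replicate 4 and control replicate 3 from the other 6 libraries, not the groups. The log2 fold change was 0.022 ± 0.19 (SE), with the widest error among the members. TFPI2 encodes a relative of TFPI with Kunitz domains that inhibits plasmin more than tissue factor, and it is set apart from the anticoagulants here. Its level was a small fraction of that of TFPI, at 3.42, 4.11, 3.06 and 3.51 FPKM in estradiol replicates 1 to 4, against 3.43, 3.14, 3.02 and 3.39 FPKM in control replicates 1 to 4. Estradiol replicate 2 was the highest, and the other 3 estradiol libraries lay between 3.06 and 3.51 FPKM, which overlaps the control range of 3.02 to 3.43 FPKM. Its log2 fold change, 0.088 ± 0.090 (SE), was the highest of the 8, and it was 0.028 without estradiol replicate 2. TFPI2 rested on 250 to 303 reads per library, a counting error of about 5.91%, against a coefficient of variation of 12.3% in estradiol and 6.18% in control libraries.

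Of the procoagulant genes, F3 was present at a low level and VWF at a lower one. F3 measured 3.66, 3.42, 4.09 and 5.27 FPKM in estradiol replicates 1 to 4, against 3.72, 3.60, 4.96 and 4.05 FPKM in control replicates 1 to 4. As with TFPI, the high values were estradiol replicate 4 and control replicate 3. The log2 fold change was 0.0026 ± 0.13 (SE), from 263 to 470 reads per library. The groups' spread, 20% in estradiol and 15.1% in control libraries, was larger than the counting error of about 5.25%.

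VWF, which most vascular endothelium stores in quantity, measured 0.283, 0.362, 0.259 and 0.231 FPKM in estradiol replicates 1 to 4, against 0.248, 0.362, 0.293 and 0.332 FPKM in control replicates 1 to 4. No library stood apart and the groups overlapped. The mean of log2(FPKM + 1) was 0.028 lower in estradiol libraries, which an exact two-sided permutation test did not separate from the spread (p = 0.571, n = 4 each, smallest possible p 0.0286). The pseudocount of 1 is above the level of this gene and shrinks its differences: with a pseudocount of 0.1 the difference was -0.094 (exact permutation p = 0.543). These values rested on 79 to 127 reads per library spread over a transcript length of 8830 bases, a counting error of about 9.99%, and the coefficient of variation between libraries was larger than that in both groups. Of proteins that endothelial cells can store with it, MMRN1, multimerin, stood at 12.7 ± 3.60 FPKM in estradiol and 12.9 ± 2.65 FPKM in control libraries, and SELP, P-selectin, at 0.0443 ± 0.0112 FPKM and 0.0611 ± 0.0180 FPKM, in the same order (SD, n = 4 each). SELP rested on 4 to 11 reads per library, a counting error of about 37.1%, larger than its coefficient of variation in both groups.

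The promoters of this opposing pair, the starter of coagulation and its inhibitor, are shown because estrogen receptors act by binding estrogen response elements or through factors at AP-1 sites and GC boxes, although many of their sites lie far from gene starts. RefSeq promoter sequences (GRCh38.p14) were matched for 6 of the 9 genes, with 7 starts because PLAU has a pair of them, and the 250 bases before each start were searched on both strands. Capitals mark the letters GGTCA (an estrogen response element half-site, TGACC on the other strand), TGANTCA (an AP-1 site) and GGGCGG (a GC box, CCGCCC on the other strand).
F3 (chr1:94541760-94542009, minus strand): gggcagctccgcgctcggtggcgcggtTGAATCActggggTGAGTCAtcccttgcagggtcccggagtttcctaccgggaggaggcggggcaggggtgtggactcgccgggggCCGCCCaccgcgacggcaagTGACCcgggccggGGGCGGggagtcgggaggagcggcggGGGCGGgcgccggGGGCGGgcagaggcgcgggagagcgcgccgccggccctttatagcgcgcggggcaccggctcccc
TFPI (chr2:187554436-187554685, minus strand): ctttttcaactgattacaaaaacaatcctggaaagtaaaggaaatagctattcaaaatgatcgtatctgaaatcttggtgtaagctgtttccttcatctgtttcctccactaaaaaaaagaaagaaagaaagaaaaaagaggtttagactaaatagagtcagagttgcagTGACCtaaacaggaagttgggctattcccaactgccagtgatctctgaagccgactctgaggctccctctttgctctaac
The full estrogen response element, GGTCA followed after any 3 bases by TGACC, was in 0 of the 7 windows and in 0.0399% of 35116 RefSeq windows of the same length. GGTCA or TGACC was in 2 of the 7 windows, against 32.6% of all windows, so the count is not read as an excess. The 2 windows that held it, once each, are the ones shown. The F3 window also held TGANTCA at 2 places and the GC box at 4, while the TFPI window held neither. Their base composition differed: 78% of the F3 window and 38.4% of the TFPI window was G or C. A match is a run of letters, and no binding was measured.

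The libraries that stood apart were less distinct in the ratio of the inhibitor to its target than in either gene. TFPI transcripts were 11.3, 12.3, 10.8 and 11.9 times as abundant as F3 transcripts in estradiol replicates 1 to 4, against 11.9, 11.9, 13.2 and 8.94 times in control replicates 1 to 4. Estradiol replicate 4 lay inside the range of the 6 libraries that did not stand apart, 8.94 to 12.3, and control replicate 3 was above it. The means were 11.6 ± 0.633 in estradiol and 11.5 ± 1.82 in control libraries (SD, n = 4 each). Summed over THBD, PROCR and TFPI, the anticoagulant genes were 58.9 ± 9.15 times as abundant as F3 and VWF together in estradiol libraries and 59.1 ± 9.02 times in control libraries (SD, n = 4 each). That ratio was 46.0 in estradiol replicate 4 and 47.2 in control replicate 3, against 57.4 to 67.6 in the other 6. These ratios are descriptions and were not tested.

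**Figure D2:**
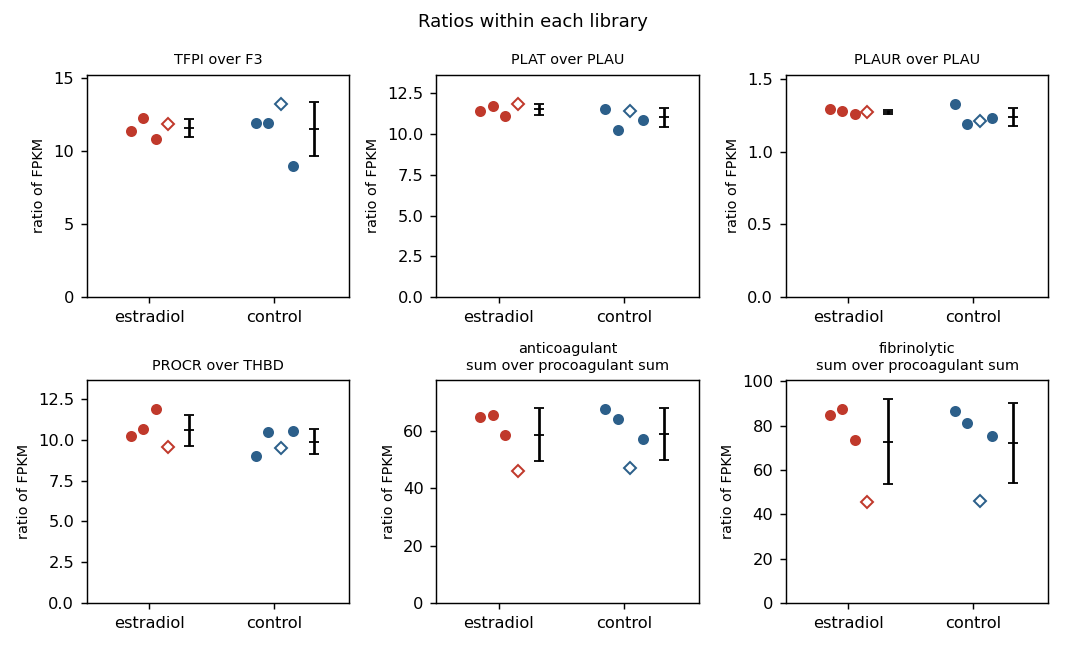
Ratios of FPKM within each library for 4 estradiol (red, left) and 4 control (blue, right) libraries, with the group mean and SD beside the points, and open diamonds for estradiol replicate 4 and control replicate 3. TFPI over F3 and the ratios within the fibrinolytic genes keep the diamonds near the other points, while both sums over the procoagulant sum place the diamonds lowest, near 46 in the panel of fibrinolytic over procoagulant.

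The fibrinolytic genes PLAU, PLAT and PLAUR summed to 309 ± 39.5 FPKM in estradiol and 309 ± 45.7 FPKM in control libraries, and the anticoagulant genes THBD, PROCR and TFPI to 253 ± 3.69 FPKM in estradiol and 256 ± 8.91 FPKM in control libraries (SD, n = 4 each). The fibrinolytic sum was the larger in all but estradiol replicate 4 (250.1 against 253.0 FPKM) and control replicate 3 (242 against 248 FPKM). PLAT, the tissue-type activator, led it. It measured 278, 277, 265 and 210.0 FPKM in estradiol replicates 1 to 4, against 285, 265, 203 and 274 FPKM in control replicates 1 to 4. Estradiol replicate 4 and control replicate 3 were again the low ones and the other 6 lay between 265 and 285 FPKM. The log2 fold change was 0.0089 ± 0.13 (SE), from 23264 to 34345 reads per library. Counting error was about 0.575%, far below the coefficient of variation of 12.5% in estradiol and 14.4% in control libraries.

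PLAU measured 24.4, 23.6, 23.9 and 17.7 FPKM in estradiol replicates 1 to 4, against 24.7, 25.8, 17.7 and 25.2 FPKM in control replicates 1 to 4. Outside estradiol replicate 4 and control replicate 3, the 3 estradiol libraries (23.6 to 24.4 FPKM) all lay below the 3 control libraries (24.7 to 25.8 FPKM). PLAU was the 1 member of the 8 tested whose groups did not overlap in those 6 libraries, where 9.52% of all genes tested did not overlap (4.6% higher and 4.93% lower in estradiol libraries). In a fit of those 6 libraries the log2 fold change was -0.072 ± 0.044 (SE, limma adjusted p = 0.991), and within the pair that stood apart estradiol minus control was -0.0043 on the same scale. Over all 8 libraries it was -0.055 ± 0.14 (SE). C10orf55, which overlaps PLAU on the opposite strand in the reference annotation, stood at 1.22 FPKM in estradiol replicate 2 and at 0.0976 to 0.404 FPKM in the other 7 libraries, low beside PLAU.

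PLAUR, the receptor that holds PLAU at the cell surface, measured 31.5, 30.2, 30.0 and 22.5 FPKM in estradiol replicates 1 to 4, against 32.9, 30.7, 21.5 and 31.0 FPKM in control replicates 1 to 4. PLAUR was 1.28 ± 0.0139 times as abundant as PLAU in estradiol and 1.24 ± 0.0629 times in control libraries (SD, n = 4 each). PLAT was 11.5 ± 0.339 times as abundant as PLAU in estradiol and 11.03 ± 0.592 times in control libraries (SD, n = 4 each). The log2 fold change of PLAUR was -0.016 ± 0.15 (SE). The receptor and its ligand were both lowest in estradiol replicate 4 and control replicate 3, as were many genes, and any part of their promoters in this was not tested. The promoters of the receptor and its ligand are shown as a description, with the second of the PLAU starts, marked as before.
PLAU (chr10:73910882-73911131, plus strand): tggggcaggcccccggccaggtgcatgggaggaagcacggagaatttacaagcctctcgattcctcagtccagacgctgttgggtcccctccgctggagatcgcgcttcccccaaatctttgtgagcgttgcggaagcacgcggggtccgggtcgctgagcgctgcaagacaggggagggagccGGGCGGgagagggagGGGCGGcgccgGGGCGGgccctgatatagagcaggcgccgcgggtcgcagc
PLAUR (chr19:43670170-43670419, minus strand): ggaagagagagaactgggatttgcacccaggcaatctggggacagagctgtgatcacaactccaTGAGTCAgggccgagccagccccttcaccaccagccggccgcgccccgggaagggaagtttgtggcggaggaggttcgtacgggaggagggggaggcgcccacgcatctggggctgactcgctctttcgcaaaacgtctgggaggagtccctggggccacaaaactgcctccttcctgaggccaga
The PLAU window held the GC box at 3 places and no TGANTCA, and the PLAUR window held TGANTCA once and no GC box. GGGCGG was in 42.6% and TGANTCA in 6.57% of all windows. The window of the first PLAU start held none of the 4 motifs.

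**Figure D3:**
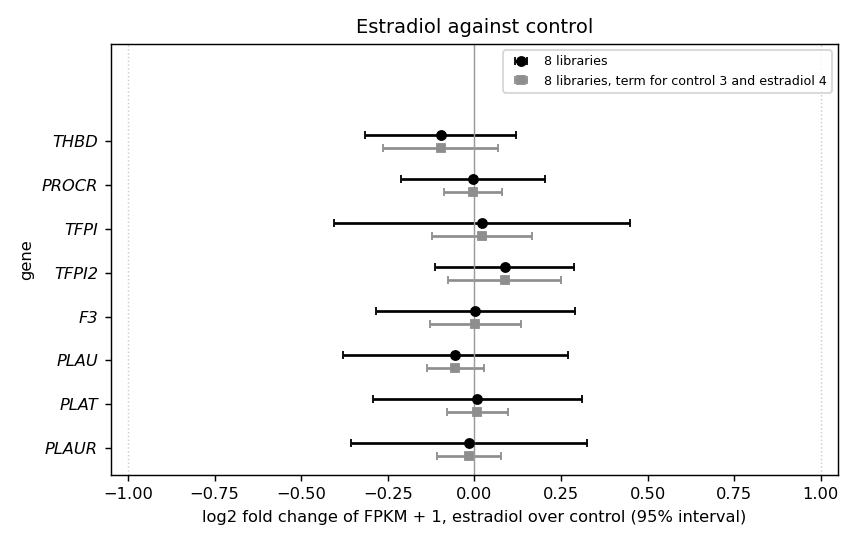
Log2 fold change of FPKM + 1, estradiol over control, with 95% intervals for the 8 members tested by limma, with the 8 libraries (black circles) and with a further term for control replicate 3 and estradiol replicate 4 (grey squares). Every interval includes 0, and the term narrows them: for TFPI the interval of -0.40 to 0.45 becomes -0.12 to 0.17.

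For TFPI, F3, PROCR, PLAU, PLAT and PLAUR most of the spread within the groups lay in estradiol replicate 4 and control replicate 3. For THBD, TFPI2 and VWF it did not. Of the 8 members tested, 2 (TFPI and F3) were above the other 6 libraries in both, 4 (PROCR, PLAU, PLAT and PLAUR) were below them in both and 2 (THBD and TFPI2) were neither. Over all genes tested, 34.6% were above and 43.9% below in both, so the members' counts are not far from the table as a whole. TFPI averaged 64.1 FPKM in the pair and 41.8 FPKM in the other 6 libraries, a difference of 0.61 in log2(FPKM + 1) that exceeded 96.9% of the genes tested. PLAUR, at 22.0 FPKM in the pair and 31.0 FPKM in the other 6, had a difference of -0.48, with 5.75% of the genes tested lower.

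The direction went with base composition, whose part in these values was not tested. Reference transcripts of TFPI had a GC content of 40.4% and those of F3 43.5%, while the 4 genes that were low in the pair ranged from 52.4% (PROCR) to 55.8% (PLAUR). THBD, at 54.8%, departed from this order, with a difference of -0.076. Across the 8 members, which share the same libraries, the Spearman correlation of GC content with the difference was -0.833, and across 10250 genes tested it was -0.88. Deviations from the median library had a rank correlation with GC content across genes of -0.847 in estradiol replicate 4 and -0.861 in control replicate 3, against -0.355 to 0.640 in the other 6. Because 1 library of the pair is in each group, a term for the pair leaves the fold changes as they were and changes only their errors. Leaving the pair out also moved the fold changes. For TFPI the fold change went from 0.022 to 0.053 and the SE from 0.19 to 0.075. For THBD the fold change went from -0.097 to -0.145 and the SE from 0.098 to 0.083. With a term for the pair the SEs of the 8 members were 0.037 to 0.073, against 0.090 to 0.19 without it, and 0 members passed (limma adjusted p = 0.999956 for each). The fold changes then had 95% intervals between 0.834-fold (the lower bound for THBD) and 1.19-fold (the upper bound for TFPI2).

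**Figure D4:**
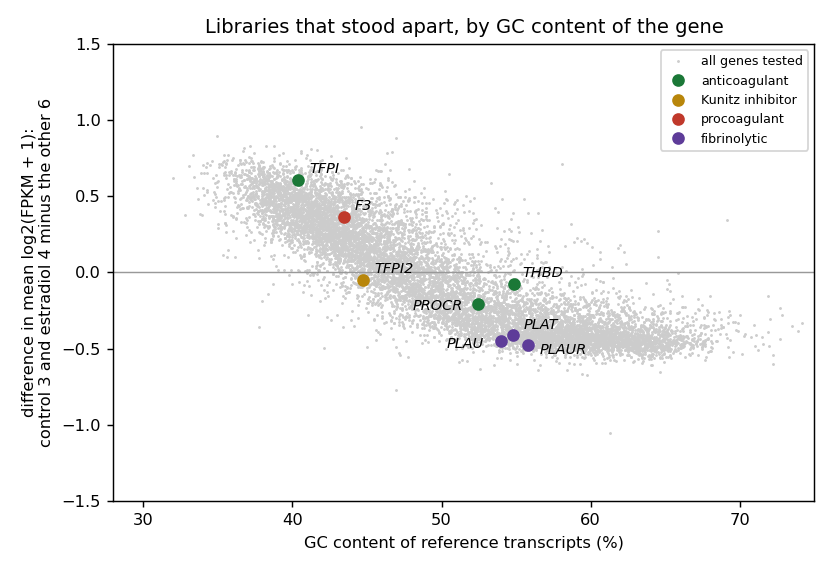
Difference in mean log2(FPKM + 1) between 2 libraries (estradiol replicate 4 with control replicate 3) and the other 6, against GC content of reference transcripts, for the genes tested (grey) and the 8 members (coloured by role). TFPI and F3 lie at the upper left, at 0.61 and 0.36, and PLAU, PLAT and PLAUR at the lower right, between -0.48 and -0.41.

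The gene whose level varied most among the members was TFPI, with a range of 0.84 in log2(FPKM + 1). The 3 genes tested with the most similar profile over the 8 libraries were SLC30A7, INSIG2 and SLC25A36, with root mean square differences of 0.022, 0.023 and 0.024 in log2(FPKM + 1) after centring each gene on its mean. Their GC contents were 36.2%, 37.2% and 44.2%.

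Across the wider haemostasis list no gene passed either. Of its 49 genes, 24 were tested, and 0 were higher and 0 lower by limma (0 at an unadjusted p under 0.05). The fold changes had a median of -0.016, 11 above 0 and 13 below, beside -0.00047 for all genes tested, and they ran from -0.11 to 0.11. None of the 13 coagulation factors and fibrinogen chains reached the filter, and F7, F9, F13A1, FGA, FGB and FGG were listed at 0 in each library. The most abundant of them were F12, the contact factor, at 0.324 ± 0.156 FPKM in estradiol and 0.328 ± 0.0876 FPKM in control libraries, and F8, the cofactor carried by VWF, at 0.183 ± 0.0528 FPKM and 0.173 ± 0.0504 FPKM in the same order (SD, n = 4 each). Plasminogen (PLG) was listed at 0 in each library as well.

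The most abundant of the other genes in each role are given next. F2R, the main thrombin receptor, stood at 58.9 ± 5.51 FPKM in estradiol and 60.3 ± 3.65 FPKM in control libraries, and F2RL2, a related receptor, at 7.92 ± 1.08 FPKM in estradiol and 8.12 ± 0.814 FPKM in control libraries. LMAN1 and MCFD2, which carry factors V and VIII out of the endoplasmic reticulum, stood at 164 ± 27.0 and 124 ± 17.3 FPKM in estradiol libraries, against 167 ± 34.7 and 126 ± 14.9 FPKM in control libraries. ANXA5, which covers the membrane lipid on which clotting complexes form, measured 514 ± 17.9 FPKM in estradiol and 498 ± 51.7 FPKM in control libraries. NT5E, which makes adenosine, a brake on platelets, measured 68.5 ± 12.02 FPKM in estradiol and 71.2 ± 11.6 FPKM in control libraries (SD, n = 4 each for these genes). None of them differed beyond the spread.

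Among fibrinolysis genes S100A10, which with ANXA2 gathers plasminogen and PLAT at the cell surface, measured 894 ± 26.6 FPKM in estradiol and 852 ± 35.0 FPKM in control libraries (SD, n = 4 each; log2 fold change 0.069 ± 0.072 SE). ANXA2 itself measured 472 ± 52.6 FPKM in estradiol and 471 ± 54.4 FPKM in control libraries (SD, n = 4 each; log2 fold change 0.0039 ± 0.12 SE). Of the 7 genes tested in that role 6 had a fold change above 0 and 1 below, with a median of 0.014, and the groups overlapped for each. Over all genes tested, 5308 of 10720 had a fold change above 0. The smallest unadjusted limma p in the role was 0.353, so the count is not read as a direction. THSD1, an endothelial membrane protein, was counted in this role.

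**Figure D5:**
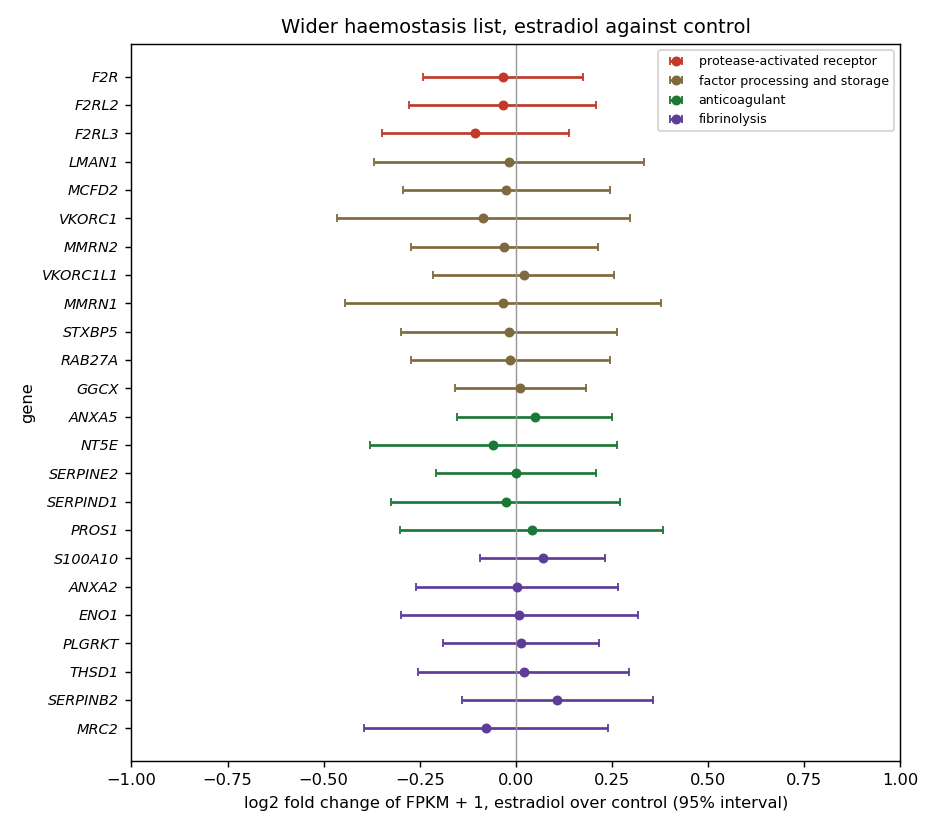
Log2 fold change of FPKM + 1, estradiol over control, with 95% intervals from limma for the 24 tested genes of the wider haemostasis list, grouped by role and ordered by level within it. Every interval includes 0, and the fold changes lie between -0.11 (F2RL3) and 0.11 (SERPINB2).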

How the data were processed

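RNA of 4 estradiol and 4 control libraries of TeloHAEC was sequenced. The authors deposited 1 table of FPKM values per gene symbol and library. The submitters' processing notes name HTSeq and fastp (0.20.1) among the authors' tools. Aligner, build, annotation and strand setting: not given in the sources used here, so no gene coordinates are printed. Promoter coordinates are those of RefSeq on GRCh38.p14. The members and lists were chosen with earlier results of these data known, as were the alternatives.

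Whole reads were recovered from the steps of the FPKM values: 100% of the 152348 values above 0 were rebuilt within a relative tolerance of 1e-06. Counting errors are the inverse square root of the mean reads and cover counting only. Genes with a mean of at least 1 FPKM were tested on log2(FPKM + 1) in limma (3.58.1, under R 4.3.3), two-sided, with eBayes moderation along a trend in the mean and no block. Fold changes on that scale understate those of low genes. p-values were adjusted over the 10720 genes tested. VWF had an exact permutation test over the 70 relabellings. GC content is the median over GENCODE 29 transcripts of a gene name, for 95.6% of the genes tested. The fit and the read recovery were tested on simulated data. The noise simulated for the fit was independent between libraries and left out the shift shared by control replicate 3 and estradiol replicate 4. It therefore does not measure what the fit could detect here. Other steps ran in Python 3.11.15 (scipy 1.17.1, pandas 2.3.3, numpy 2.4.6, matplotlib 3.10.9).

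All 9 members were named. One gene of the wider list is not reported here. From the rest the text names the 2 most abundant genes of each role and any past the test; the genes at 0, ITGB3 and other markers, MMRN1, SELP, the transcripts overlapping PROCR and PLAU, F2RL3, THSD1 and SERPINB2 were chosen after their values were seen. Alternatives were another pseudocount, no filter or a filter at 5 FPKM, median-of-ratios factors, quantile normalization, no trend, array weights, the replicate block, each library left out, the pair left out or given a term, limma-voom on reads and, chosen after seeing the data, removal of each library's GC trend.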

Additional observations from a re-analysis of the deposited data

Results flagged for a closer look

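In 4 of the 18 member and group combinations examined, 1 library lay far from the other 3, by Dixon's criterion on its gap to the nearest of them. Chance gives this in about 1 of 20 independent groups, but the 18 combinations share the same 8 libraries. The share over all genes tested is not given here, so the count is not read as an excess. In estradiol libraries TFPI was 62.5 FPKM in replicate 4 against 41.5 to 44.1 FPKM in the other 3, PLAU was 17.7 FPKM in replicate 4 against 23.6 to 24.4 FPKM, and PLAUR was 22.5 FPKM in replicate 4 against 30.0 to 31.5 FPKM. In control libraries PLAU was 17.7 FPKM in replicate 3 against 24.7 to 25.8 FPKM. These are the libraries that stood apart over all genes, with 34.6% of genes tested above the other 6 in both and 43.9% below. Their deviations went with GC content, whose part in these values was not tested.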

How the results depend on the processing

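Under the 20 alternatives 0 genes were called in either direction, 0 of the wider list passed and no member passed (smallest limma adjusted p = 0.679 for a member). Of 158 log2 fold changes of members, 135 kept their sign. Outside the fits that leave out 1 library, F3 turned to -0.0041 with quantile normalization, -0.021 without the pair and -0.010 with the GC trend removed, and PLAT to -0.0054 without the pair. Leaving out 1 library gave ranges of -0.10 to 0.082 for F3, -0.10 to 0.10 for PLAT, -0.18 to 0.049 for PLAU, -0.15 to 0.091 for PLAUR, -0.069 to 0.036 for PROCR, -0.11 to 0.19 for TFPI, 0.028 to 0.14 for TFPI2, -0.14 to -0.025 for THBD and -0.057 to -0.0080 for VWF. For F3, PLAT, PLAU, PLAUR, PROCR and TFPI both ends came from leaving out estradiol replicate 4 or control replicate 3, with the other kept. The cause of the turns in sign was not tested. The wider list's median ranged from -0.033 to 0.041 in those fits, so its sign turned (0.041 without control replicate 3 and 0.0061 without estradiol replicate 1). Genes at an unadjusted p under 0.05 numbered 26 of 10720 tested, and 437 of 23471 with no filter and 4 of 7221 with a filter at 5 FPKM. They numbered 888 of 10720 with array weights, 413 of 10733 without the pair and 351 of 10720 with a term for it. With the GC trend removed they were 228 of 10250, and with 1 library left out from 14 of 10722 to 183 of 10721.

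Whether the replicate numbers pair the libraries is not stated in the sources used here, and correlations between libraries cannot settle it. The shift shared by control replicate 3 and estradiol replicate 4 was left in the deviations and could hide a pairing. Deviations of same-numbered libraries correlated at 0.616, 0.0728, -0.478 and -0.737, and 0 of 4 estradiol libraries correlated best with the control of their own number. With the replicate block 0 genes were called and 11 had an unadjusted p under 0.05. For VWF, under the filter, only the pseudocount, the filter, size factors and left-out libraries could be varied. Counting error was largest for VWF, TFPI2 and F3.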
